A study of Rattus norvegicus with 2 samples.

Results

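The 48 genes described here encode proteins of the cytosolic ribosome, 33 of the large and 15 of the small subunit. They were found by symbol: every probe set that the platform annotation gives to exactly 1 gene named Rpl or Rps with a number, or Rplp0, Rplp1, Rplp2 or Rpsa, was taken, and the S6 kinases were left out. This gave 55 probe sets of the 20826 that name 1 gene, and 48 genes of 14217. The RNA came from cultured microglial cells, the macrophages of the brain, of Sprague Dawley rats. One group was left at rest (1 array), and in the other the cells went without oxygen and glucose for 3 h (oxygen-glucose deprivation, OGD, used as a stand-in for stroke; 1 array). Both were grown in DMEM with FCS, and no genotype or treatment besides OGD is labelled. The labels give no age, sex, number of animals or culture purity. With 1 array per group no test is possible, and each difference below describes these 2 arrays only.

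A ribosome joins a small subunit, which reads the mRNA, to a large subunit, which forms the peptide bond and releases the new chain through a tunnel. Cells make the proteins of both subunits in balanced amounts, and much of that control acts on translation. Most mRNAs of ribosomal proteins begin with a short run of C and T bases, the 5′ terminal oligopyrimidine (TOP) tract, through which the kinase mTOR and the RNA-binding protein Larp1 hold them off or on the ribosome when nutrients or oxygen run short. The arrays measured the amount of mRNA, not its translation.

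The tract played no part in how the members were chosen, and only some of them carry it at the annotated start, so a few transcription start regions are shown to make it visible. They are RefSeq sequences of build GRCr8, with 12 bases before the annotated start followed by the first 16 bases of the transcript. Capitals mark the unbroken run of C and T that opens the transcript where its first base is C. The first 7 genes carry such a run of at least 5 bases, and the last 3 do not.
Rpl19 (chr10:83519052-83519079, plus strand): gaccagcaagctCTTTCCTTTCgctgct
Rpl35a (chr11:81235006-81235033, minus strand): ggtcttgccttcCTCTTTCCgccatctt
Rpl22 (chr5:168117949-168117976, plus strand): gtgcgcccccctCCCTTTCTgcctcctc
Rps15 (chr7:10068100-10068127, minus strand): tgacaccgcttcCTTTTCCCagcagccg
Rps3a (chr2:173827027-173827054, minus strand): ttgtacttccgcCCTTTTggctctcaga
Rplp0 (chr12:46718375-46718402, minus strand): cgcaccgcacttCTCTCgccaggcgtcc
Rpl39 (chrX:121195881-121195908, minus strand): tctaatcgcgttCTTCCggcctgtcctt
Rps3 (chr1:163195761-163195788, minus strand): ctttcagcggcgCgcggcagcaagatgg
Rpl3l (chr10:14258434-14258461, plus strand): ctctggtgcctggtggggaggtcccttc
Rps27l (chr8:76443646-76443673, plus strand): tattcatttgtcattatttgtggtgtcc

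RefSeq windows were matched for 41 of the 48 genes. A C at the first base followed by at least 4 more C or T on the transcribed strand was present in 11 of the 41, or 26.8%, against 722 of all 27457 windows, or 2.63%. In the large subunit 9 of 28 windows had it and in the small subunit 2 of 13. An annotated start that is off by a few bases hides a tract, and when the window from 10 bases before to 20 bases after the start was searched instead, 28 of 41 members held a run of this kind, against 33.5% of all windows. The letters describe these annotated starts only. On the arrays the 9 measured members with a tract at the start had a median log2 difference of -0.017, with 8 lower and 1 higher. The 29 without one had -0.040, with 21 lower, 6 higher and 2 equal. Over all measured genes 51.3% were lower and 42.8% higher.

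In the cells exposed to OGD the ribosomal protein mRNAs were close to their resting values. Differences are given as log2 of the OGD intensity minus log2 of the resting intensity, so that a negative value is lower after OGD, with the brightest probe set standing for each gene. A gene was called measured when its intensity was above the median of its array, a floor of 19.62 at rest and 19.66 after OGD. By this rule 45 of the 48 genes were measured, and all 45 were above the floor on both arrays. No member differed by 1.5-fold, the threshold in the series' design text; of all 9580 measured genes 0.0418% were lower and 0.0731% were higher by that much. At a finer step of 1.1-fold, 4 members were lower, namely Rps13, Rps4y2, Rps27l and Rpl23a, and 0 were higher, where 18.2% of all measured genes were lower and 14.2% higher. Rpl23a lay just past this step with a log2 difference of -0.14, and the next member, Rps3, had -0.11.

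**Figure D1:**
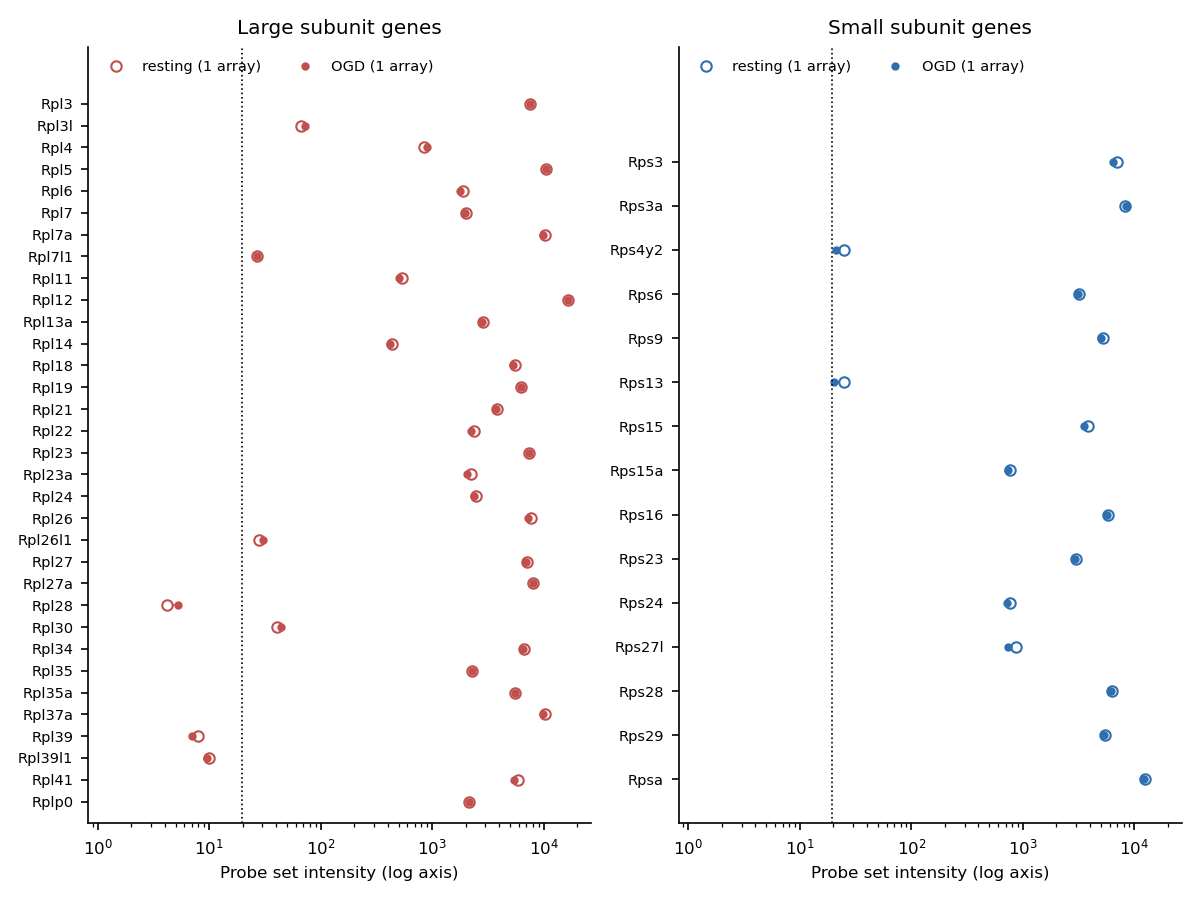
Intensity of the brightest probe set of each member gene on the resting array (open circles) and the OGD array (filled circles), on a log axis, with 1 array per group and no error bars; the dotted line is the floor of 19.6. Open and filled circles nearly coincide for most of the 48 genes, and Rpl28, Rpl39 and Rpl39l1 lie below the floor.

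The small differences ran mostly one way. Of the 45 measured members 35 were lower on the OGD array, 8 were higher and 2 were equal, with a median of -0.030, while over all measured genes 51.3% were lower, 42.8% were higher and the median was -0.0076. Most members are bright, and bright genes in general were lower in these deposited values: among 298 other genes with a mean intensity of 1000 or more, 64.8% were lower, 34.6% higher and the median was -0.035. The 33 members of that brightness had a median of -0.027, with 28 lower, 4 higher and 1 equal. Of these 33, 1 was lower by 1.1-fold and 0 were higher, against 13.4% and 4.03% of the other bright genes. The lower share rested on the scaling of the arrays to each other. Of 45 members 39 were lower and 6 higher after centring each array on its median. After quantile normalization 27 were lower and 8 higher, and the rest were exactly equal. After removal of a trend on brightness (loess) 23 were lower and 22 higher. Over all measured genes 57.4%, 50.9% and 51.2% were lower under these scalings, and over the other bright genes 65.8%, 50.8% and 51.7%, so the 51.1% of members lower after loess removal is the background share. Under all 4 scalings, the deposited one included, 19 members were lower and 5 (Rpl3l, Rpl4, Rpl26l1, Rpl30 and Rps3a) were higher, and the other 21 were equal or switched sides. Of all measured genes 47.8% kept the lower and 42.4% the higher side, against 42.2% and 11.1% of the members. Among bright genes the shares were 36.4% and 3.03% of the 33 members, against 48.0% and 33.2% of the 298 others. Quantile normalization set some bright members to exactly 0, and such a gene cannot keep a side. Rpl6, Rpl24 and Rpl37a, for example, were lower under every other scaling. These shares therefore do not show whether directions were steadier or less steady among members.

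The bright members scattered little around their median. Their differences had an SD of 0.039 across 33 genes, against 0.10 across the 298 other bright genes, whose median resting intensity was 1612 against 5815 for the members. Bright probe sets for one and the same gene had an SD of 0.047 around their gene's mean (10 genes, 21 probe sets). The genes are not independent replicates, and whether the higher intensity of the members goes with the smaller scatter was not tested. Across the 45 members above the floor, the difference and the log2 mean intensity had a Pearson's r of 0.11; it was 0.36 over the 33 bright members and -0.085 over 9168 genes that passed the floor at rest and after OGD, a description over genes that share the same 2 arrays.

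**Figure D2:**
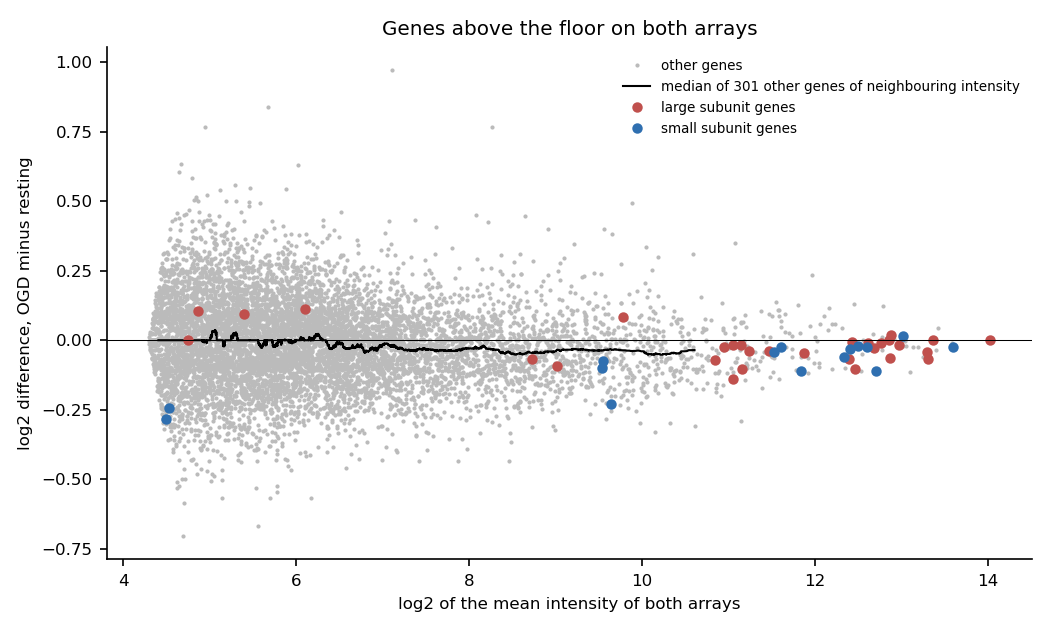
Log2 difference (OGD minus resting) against the log2 mean intensity of both arrays for genes above the floor on both. Grey dots are other genes, the black line their running median, red and blue dots large and small subunit genes. The line sinks slightly below 0 at high intensity, where most members lie in a narrow band around -0.027; loess removal brings their median to 0.0041 and leaves their SD at 0.039.

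The large subunit had 30 measured genes, of which 21 were lower on the OGD array, 7 higher and 2 equal, with a median of -0.021 and a range from -0.14 to 0.11; after loess removal 14 were lower, 16 higher and the median was 0.0074. Rpl23a, which lines the exit of the peptide tunnel and receives factors that bind the new chain, gave 2236 at rest and 2032 after OGD, a difference of -0.14 and the largest of the large subunit. Rpl22, which also binds certain mRNAs and is dispensable in many tissues, gave 2373 and 2209 (1.07-fold lower). Rpl41, which encodes one of the smallest proteins known, gave 5844 and 5442 (1.07-fold lower). Rpl6 gave 1879 and 1790.4 (1.05-fold lower).

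Of 8 listed tunnel proteins 5 were measured, 4 of them lower and 1 higher with a median of -0.017, which turned to 0.016 after loess removal. Over all measured genes 51.3% were lower in the deposited values. Rpl19 had an intensity of 6319 at rest and 6277 after OGD, and Rpl35 had 2283 and 2256. Rpl26, at the tunnel exit, had 7631 and 7294, a difference of -0.065. Rpl4, which reaches into the tunnel wall, was on the higher side with 852 and 903 (1.06-fold higher, and higher under all 4 scalings). Rpl39, which lies in the tunnel itself, had 7.90 and 7.07 and was under the floor on both arrays, so no fold is given.

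The stalk of the large subunit recruits the GTPases that drive elongation. Its base protein Rpl12 read 16672 at rest and 16687 after OGD, and the scaffold Rplp0 read 2139 and 2117. No probe set named Rplp1 or Rplp2 alone. The difference of Rpl12 was 0.0013 and that of Rplp0 -0.015. Rpl5 and Rpl11 form a particle with 5S rRNA and, when ribosome assembly fails, bind the p53 inhibitor Mdm2. Rpl5 measured 10571 at rest and 10589.7 after OGD, and Rpl11 measured 537 and 503.8 (1.07-fold lower, a difference of -0.093). Rpl5 had a difference of 0.0026, which was 0 after quantile and 0.033 after loess scaling, while Rpl11 was lower under all 4 scalings.

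Rpl13a, known in myeloid cells as part of an interferon-gamma-triggered complex that silences inflammatory mRNAs, gave 2877 at rest and 2799.6 after OGD, a difference of -0.039. Rpl3, which lies near the catalytic centre, gave 7504 and 7604, a difference of 0.019. Its other probe set gave 767 and 824, a difference of 0.10. Rpl7 had -0.023 in its brightest probe set and 0.083 in the other, the latter from 79.1 and 83.8. For Rpl7 the probe sets thus gave opposite directions, and for Rpl3 they shared a direction but not a size.

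Among the remaining large subunit genes Rpl18 (5529 and 5277) and Rpl7a (10375 and 9911) were 1.05-fold lower. Rpl14 (436 and 416) was 1.05-fold lower too, and its other probe set lay under the floor on both arrays. Rpl21 (3823 and 3706), Rpl37a (10178 and 9889) and Rpl24 (2454 and 2388) had differences of -0.045, -0.042 and -0.040. Rpl34 (6640.4 and 6517) had -0.027. Rpl27a (8085 and 7981), Rpl27 (7017 and 6963) and Rpl35a (5530.1 and 5509.9) had -0.019, -0.011 and -0.0053. Rpl23 was listed at 7439 on both arrays. Rpl23 and Rpl7l1 supply the 2 member probe sets, of 55, with exactly equal values on both arrays; over the whole array 8.70% of probe sets were equal, and why was not tested.

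Rpl30 is represented here only by a dim probe set of 40.9 at rest and 43.6 after OGD, 1.07-fold higher. Rpl28 was under the floor, with 4.15 and 5.27, and so was Rpl39l1, a relative of Rpl39, with 10.0 and 9.52. Whether these probe sets fail to report their transcripts was not tested. Genes of the core ribosome are used by every growing cell, so for Rpl28 and Rpl39 such a value is not read as absence.

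The small subunit had 15 genes, all of them measured. On the OGD array 14 were lower and 1 was higher, with a median of -0.059 and a range from -0.28 to 0.017; after quantile normalization 10 were lower and 3 higher, and after loess removal 9 were lower and 6 higher. Rps3, which guides the mRNA into the subunit and also acts in DNA repair and NF-kB signalling, gave 6947 at rest and 6431 after OGD (1.08-fold lower). Rps15, in the head of the subunit near the decoding site, gave 3808 and 3531 (1.08-fold lower). Of the 14 listed head proteins 5 were measured and all 5 were lower (median -0.030, turning to 0.0013 after loess removal). Of 7 listed for the mRNA channel 3 were measured and 3 were lower (median -0.025, turning to 0.0047). In the deposited values 51.3% of all measured genes and 64.8% of the other bright genes were lower. After loess removal these shares were 51.2% and 51.7%.

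Rps24 and Rps15a, 2 of the genes mutated in Diamond-Blackfan anaemia, gave 771 and 720.2 and 769.5 and 730.4 respectively. Of the 19 genes listed for that disease 11 were measured, with 10 lower and 1 higher in the deposited values. After loess removal 5 were lower and 6 higher. The shares lower over all measured genes were 51.3% in the deposited values and 51.2% after loess removal. Rps24 and Rps15a had differences of -0.099 and -0.075, which were -0.063 and -0.040 after loess removal. Rps9 (5263 and 5053) and Rps23 (3006 and 2919.7), which both act in accurate decoding, had differences of -0.059 and -0.042. Rps6, the substrate of the S6 kinases and a readout of mTOR activity at the protein level, gave 3164 at rest and 3108 after OGD, a difference of -0.026 that became 0.0071 after loess removal.

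The other bright small subunit genes lay closer to 0. Rps29 (5468 and 5355), Rps28 (6264 and 6165) and Rps16 (5815 and 5739) had differences of -0.030, -0.023 and -0.019, each of which turned positive after loess removal. Rps3a, which takes part in binding initiation factors, was the single small subunit gene on the higher side, with 8240.3 and 8338, a difference of 0.017. Rpsa, the laminin receptor protein at the mRNA exit, was read by 3 probe sets. They gave 12509 and 12296, 7378 and 7316, and 5324 and 5113, with differences of -0.025, -0.012 and -0.058. All 3 were lower in the deposited values, though the brightest turned to 0.0047 after loess removal.

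Rps13 and Rps4y2 had the largest differences of all members and were read near the floor. Rps13 belongs to the core ribosome, yet its only probe set lay far under the members' median of 3808 at rest. Whether that probe set reports its transcript was not tested. Rps13 gave 24.9 at rest and 20.4 after OGD (1.22-fold lower), and Rps4y2, an alternative form of Rps4, gave 25.0127 and 21.1 (1.18-fold lower). With a floor at the 70th percentile of each array 41 members were measured and 2, Rps27l and Rpl23a, were lower by 1.1-fold. Over 1902 genes with several probe sets above the floor, the SD within a gene was 0.15, and both differences were smaller than 2 such SDs. That SD describes probe sets of 1 gene on the same 2 arrays, at all intensities above the floor. It does not measure the spread between arrays or cultures, so it cannot tell whether the 2 differences would recur.

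**Figure D3:**
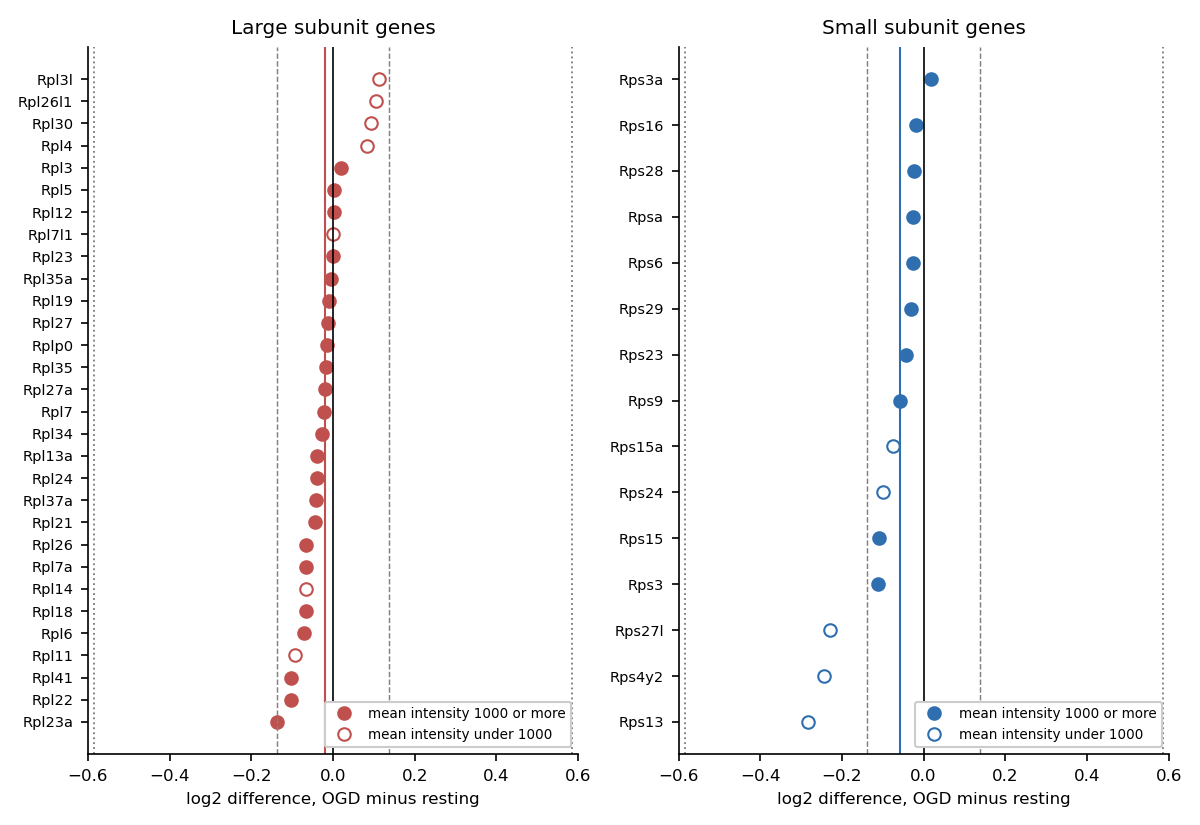
Log2 difference (OGD minus resting) of the 45 measured members, 1 array per group; filled circles have a mean intensity of 1000 or more, the coloured line is the median of the subunit, dashed lines mark 1.1-fold and dotted lines 1.5-fold. Small subunit genes sit further left in the median (-0.059 against -0.021), and their 3 lowest values come from open circles; under loess removal 9 of 15 small and 14 of 30 large subunit genes remain left of 0.

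Set side by side, the large subunit median was 0.038 above that of the small subunit (-0.021 against -0.059). The gap was seen among the dimmer genes. With members of mean intensity 1000 or more, 23 large subunit genes had a median of -0.027 and 10 small subunit genes had -0.028, a gap of 0.00081. Below 1000 all 5 small subunit genes were lower, while of 7 large subunit genes 4 were higher, 2 lower and 1 equal. The gap was 0.035 after either quantile or loess scaling and 0.017 without the 4 measured genes of the paralogue list (Rpl26l1 kept). The large subunit spanned -0.14 to 0.11 and the small subunit -0.28 to 0.017, and with genes in place of replicates no test of the gap was made.

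Paralogues replace a standard ribosomal protein in certain tissues. Of 9 listed, 4 were measured (Rpl3l, Rpl7l1, Rps27l and Rps4y2), with 2 lower, 1 higher and 1 equal; Rpl26l1, a relative of Rpl26, is not on the list and not in this count. Rps27l, a close copy of Rps27 and a known p53 target, gave 866 at rest and 738 after OGD, which is 1.17-fold lower. This was the largest difference among members brighter than 50, and it was -0.19 after either quantile or loess scaling. Of 1235 genes with a mean intensity between 200 and 1000, 3.97% were lower by this much or more. Only 1 probe set reads it, and it was singled out after its value was seen. Rpl3l, the form of Rpl3 made mainly in striated muscle, gave 66.4 and 71.8 (1.08-fold higher), and Rpl26l1 gave 28.1 and 30.2 (1.08-fold higher). Rpl7l1 was listed at 26.8 on both arrays, with 25.2 and 22.2 in its other probe set.

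Many ribosomal protein genes have near-identical processed copies in the rat genome, and probe sets that the annotation gives to several such genes cannot be named. There were 30 of these besides the members, 29 above the floor, and in 17 all listed genes were of the large and in 12 of the small subunit. Their median difference was -0.053, with 27 lower and 2 higher. By subunit the medians were -0.054 over 16 measured large subunit probe sets and -0.055 over 12 small ones, all 12 of which were lower. Of the 28 that list 1 subunit only, 26 were lower in the deposited values and 20 after loess removal, with a loess median of -0.023. Over all measured genes 51.3% were lower in the deposited values and 51.2% after loess removal. For the 298 other bright genes the shares were 64.8% and 51.7%. Whether the probe sets of several genes differ from genes of their brightness was not tested. In the deposited values they showed no gap between the subunits. The same copies can also take up signal meant for the members themselves, which was not tested. Within the members, 6 of the 50 measured probe sets carry the suffix letters a, s or x, which mark probes shared with other transcripts; the 44 without them had a median of -0.035.

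Other genes of the ribosome pathway were read from lists fixed together with the members. Rack1, a signalling scaffold on the small subunit that the symbol rule does not take, gave 10924 at rest and 10659 after OGD, a difference of -0.035. Other TOP mRNAs, most of them for translation factors, had 10 of 12 measured genes lower and 2 higher, 0 by 1.1-fold, with a median of -0.054. After loess removal 7 were lower and 5 higher, and the median was -0.020. Their median resting intensity was 1965, and of the other bright genes 64.8% were lower in the deposited values and 51.7% after loess removal. Whether the list differs from genes of its brightness was not tested. Among these TOP mRNAs the initiation factor subunits Eif3f and Eif3k were 1.09-fold and 1.08-fold lower and Eif4b was 1.08-fold lower.

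Factors that assemble ribosomes had 17 of 22 measured genes lower, 4 higher and 1 equal, with a median of -0.079. After loess removal 15 were lower and the median was -0.056. Over all measured genes 51.3% were lower in the deposited values and 51.2% after loess removal. By 1.1-fold 4 of the 22 assembly factors were lower, 18.2%, the same share as over all measured genes, and 0 were higher. Pes1 and Wdr12, which act in large subunit assembly, gave 141 at rest and 114 after OGD (1.24-fold lower) and 479 and 413 (1.16-fold lower). Nop56, a core protein of the particles that methylate rRNA, gave 1011 and 892 (1.13-fold lower). The RNA polymerase I list, which holds the enzyme that makes rRNA, was split, with 8 of 14 lower and 6 higher and a median of -0.070. Its largest values were those of Polr2f, a subunit shared with other RNA polymerases, 1.19-fold lower, Ttf1, a terminator of rRNA transcription, 1.18-fold lower, and Ubtf, the factor that opens rRNA genes, 1.12-fold higher.

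Genes listed for the control of TOP mRNAs, most of them of the mTOR pathway, showed no common direction, with 7 of 14 measured genes lower, 6 higher and 1 equal. Tsc1, an inhibitor of the pathway, was 1.18-fold lower, the mTOR partner Rptor was 1.17-fold higher and Ddit4, an inhibitor induced by hypoxia in many cells, was 1.14-fold lower from a dim 30.1 at rest. Of the S6 kinases that the symbol rule left out, 5 were measured, with 3 higher and 2 lower and a median of 0.026. The largest of these differences was that of Rps6ka2, at 95.4 and 104 (1.09-fold higher).

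**Figure D4:**
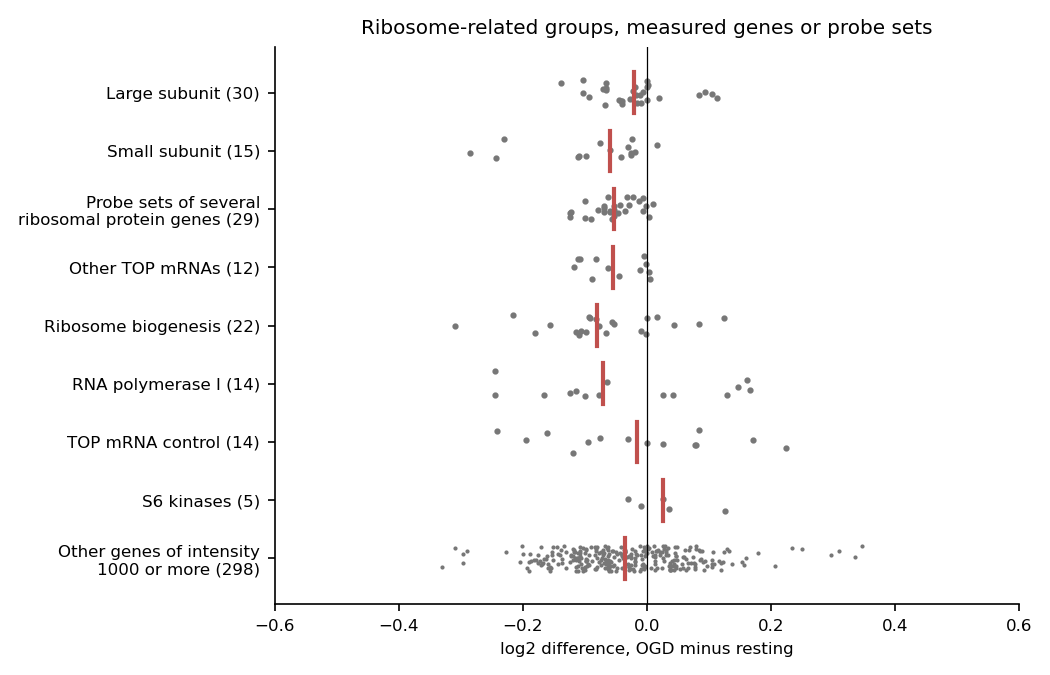
Log2 difference (OGD minus resting) of measured genes or probe sets in each ribosome-related group, with their number in brackets; each dot is 1 gene or probe set, placed vertically at random, and the red bar is the median. Every ribosomal protein dot lies between -0.28 and 0.11. In the deposited values the medians of the large subunit, small subunit and several-gene groups are -0.021, -0.059 and -0.053. After loess removal the large subunit median is 0.0074 and the small subunit median -0.027. For the 28 several-gene probe sets that list 1 subunit only it is -0.023.

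Marker genes of microglia and of other cell types were read. Of 15 microglial markers 14 had a probe set and 12 were above the floor on both arrays; Csf1r was above it on 1 array and Fcer1g on neither. Summed over the list, microglial intensity was 1634 at rest and 1569 after OGD, most of it from Trem2 (604 and 583), Cd68 (371 and 359.7) and Laptm5 (239 and 237). The others lay at 60.9 or less at rest. The 13 measured microglial markers had a median resting intensity of 42.8, against 57.6 over all measured genes. Most of them thus lay near the single markers of other types given below and do not set microglia apart. In the deposited values 13 of 13 measured microglial markers were lower, with a median of -0.096, where 51.3% of all measured genes were lower. The marker lists were not rerun under the other scalings. Of 6 astrocyte markers Aqp4, Slc1a3 and Aldh1l1 were under the floor. The 3 measured ones were higher with a median of 0.43, where 42.8% of all measured genes were higher. They were Gfap at 27.4 and 36.9, Slc1a2 at 23.8 and 32.0, and Gja1 at 22.1 and 24.3, a difference of 0.13. All 3 were dim and near the floor at rest, and the list summed to 110 and 131. Of the oligodendrocyte lineage 3 markers were above the floor, 1 higher and 2 lower (summed 115 and 121). For neurons, fibroblasts, endothelium and blood cells 1 marker each was above it, and all 4 were higher: Syn1 (48.1 at rest), Col1a1 (41.9), Vwf (46.3) and Cd3e (24.3). The lists of these 4 types summed to 103 and 114, 94.6 and 103, 69.3 and 81.8, and 67.5 and 68.2. Lists differ in length, so their sums are not set against each other. In RNA from a whole culture, fewer cells of a type and less RNA per cell cannot be told apart, and the part of these shifts in the ribosomal protein values was not tested.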

How the data were processed

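Per the labels' protocols, total RNA was extracted with TRIzol, copied into cDNA with an oligo(dT) primer and labelled with biotin. The authors deposited 1 linear intensity per probe set and array; how they corrected, summarised and normalized it is not given in the sources used here. Values from 2.75 to 19692 at rest show a linear scale. Of 31042 probe sets besides 57 controls, 20826 named 1 gene, 436 several and 9780 none. The floor was each array's median, values under it were set to it, and no p-value is given because each group holds 1 array. Genes, members and lists were chosen with earlier results of these data known. Any member could be named, and from each pathway list of other genes at most 3, by absolute difference; marker genes were named after their values were seen. The limit of 1000 for bright genes and the emphasis on Rps27l were set after values were seen. Symbols updated through Entrez IDs gave the same 48 genes (46 IDs were in the GRCr8 table). Alternatives were 13 planned and 3 added later. The calculation was tested on simulated arrays, with a shift larger than the subunit medians reported here and without dim members. That test does not speak to differences as small as the gap between the subunits. Python 3.11.15, pandas 2.3.3 and statsmodels 0.14.6 (loess span 0.3) were used.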

Additional observations from a re-analysis of the deposited data

How the results depend on the processing

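Over 16 alternatives in floor, scaling, probe set choice and membership, 3 of them chosen after seeing the data, 0 members passed 1.5-fold. A median was called moved when it differed from the reported one by over 1.5 times, since no spread between replicates exists. After quantile normalization the members' median was -0.011 and the large subunit median -0.0053. After loess removal 23 of 45 members were lower in place of 35, their median was -0.0055, the small subunit median was -0.027 and the large subunit median turned to 0.0074. The large subunit median less the small one, 0.038, was 0.017 with a floor at the 70th percentile and also without the paralogue list, 0.015 without members under 50, and 0.00081 with members of 1000 or more, where the small subunit median was -0.028. When each probe set was counted on its own and those of several ribosomal protein genes were added, 2 changes at once, 64 of 78 were lower, the large subunit median was -0.039 and the gap 0.019. No paired analysis was possible because each group holds 1 array. With 2 arrays the precision is limited, and differences under about 0.05 lie within the scatter between probe sets of 1 gene even for bright genes. The spread between arrays or cultures is unknown, because each group holds 1 array.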

Other observations

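Some deposited values lie on a shared grid. On both arrays 930 of 31042 probe sets, or 3.00%, had values that fell on steps of 0.25 from a common offset, taken from Rpl41 after its values were seen, within 0.0001, and among probe sets of intensity 1000 or more the share was 9.67%. Besides Rpl41, which set the offset, 5 of 54 member probe sets did so, or 9.26%, those of Rpl5, Rpl14, Rpl27a, Rpl35 and Rps16. The cause was not tested.

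Of the 9 genes on the list of other TOP mRNAs with a matched RefSeq window, 0 opened with C and at least 4 more C or T at the annotated first base, and 5 of 9 had such a run in the window from 10 bases before to 20 bases after it.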
